A study of Mus musculus with 22 samples.

Results

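The microRNA miR-34a-5p (mmu-miR-34a-5p on the array) was 1 of 1247 miRNA entries on Agilent mouse miRNA arrays, and it was read by 2 probes, each spotted 20 times on every array. It was selected by its name rather than by a threshold on its values, and is described here over all 22 arrays. The arrays measured total RNA of primary hepatocytes from C57Bl6 mice, which were exposed to 0.5% DMSO as solvent or to cyclosporin A (CsA) in that solvent. CsA is a calcineurin inhibitor given against graft rejection that can injure the liver. After 24 h there were 5 arrays with DMSO, 3 with CsA at 10 µM and 2 with CsA at 50 µM, and after 48 h there were 6, 3 and 3. The design text speaks of 24 arrays, of which 22 are described here. A series tag in the sample labels assigns each DMSO array to the series of the 10 µM or of the 50 µM arrays. The tag reads "IC20-48h" for the 10 µM series and "IC20-24h" for the 50 µM series, at both times. DMSO arrays of both series were pooled at each time unless stated. The descriptions give every CsA and DMSO array an "Ex." number from 1 to 3, which is read here as an experiment number. The age of the mice and whether animals were pooled are not given in the sources used here. One treatment protocol speaks of HepG2 cells, while the other labels name primary mouse hepatocytes. The titles number biological replicates without naming cultures or animals, so p-values measure the spread between these arrays.

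Transcription of the miR-34a gene is activated by the tumour suppressor p53 after DNA damage and other stress, in mouse and human cells. The mature miRNA pairs through its seed, bases 2 to 8, with messenger RNAs of cell cycle and survival genes such as Cdk6, Ccnd1, Bcl2 and Sirt1, and so lowers them. In liver it is known from work on fatty liver disease, where the deacetylase Sirt1 is one of its targets. The gene lies on chromosome 4, and its hairpin at chr4:150068454-150068555 on the plus strand (GRCm38.p6, RefSeq) gives miR-34a-5p from its 5′ arm and miR-34a-3p from its 3′ arm. The hairpin is shown because both arms have entries on the array; capitals mark the arms, at bases 20 to 41 and 64 to 84 of 102.
mir-34a hairpin: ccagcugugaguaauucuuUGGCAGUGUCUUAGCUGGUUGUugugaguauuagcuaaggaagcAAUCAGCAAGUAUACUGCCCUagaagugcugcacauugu

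In the RefSeq mouse set used here, 4 mature miRNAs carry the seed of miR-34a-5p, and all have an entry on the array. That set holds no mature sequence for miR-34c-5p or miR-449b, so the seeds of these array entries were not compared. The 4 are shown because the bases outside the seed set them apart. Capitals mark the seed.
miR-34a-5p: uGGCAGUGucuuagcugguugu
miR-34b-5p: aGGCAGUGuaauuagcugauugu
miR-449a-5p: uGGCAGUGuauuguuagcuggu
miR-449c-5p: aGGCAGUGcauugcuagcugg

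Compared base by base without gaps, miR-449a-5p matched miR-34a-5p at 15 of 22 positions, miR-449c-5p at 12 of 21 and miR-34b-5p at 11 of 22. The 2 genes of the miR-449 pair lie together on chromosome 13, at chr13:113037549-113037570 for miR-449a-5p and chr13:113036008-113036028 for miR-449c-5p. The mature miR-34b-5p lies on the minus strand at chr9:51103610-51103632.

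Of this family only miR-34a-5p was measured above background. Both of its probes had all 20 spots well above background on each of the 22 arrays, and none of their spots was saturated. Among the 11 array entries named for miR-34a, b and c or miR-449a, b and c, the other 10 were above background on 0 of 22 arrays. They include the 3′ arm of the same hairpin, miR-34a-3p, and no order can be drawn among them.

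The background-corrected signal of the brighter probe, A_54_P2499, ran from 267 to 701 intensity units with a median of 415. That of the second probe, A_54_P2498, ran from 136 to 368 with a median of 215. The spots of one array had a median coefficient of variation of 11.1% for A_54_P2499 and 8.02% for A_54_P2498, so the standard error of an array's mean was at most 3.55% and 3.79%. Levels below are for A_54_P2499, as log2 of its signal over the array's 75th percentile of probes above background, so a level of 0 lies at that percentile. On that scale the probes had a Pearson correlation of 0.993 over the 22 arrays, and their difference had an SD of 0.055 (log2). The probes thus gave nearly the same pattern over the arrays, as the plot of levels by group shows, and in that plot the order of the group means differs only for DMSO and 50 µM at 24 h.

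**Figure D1:**
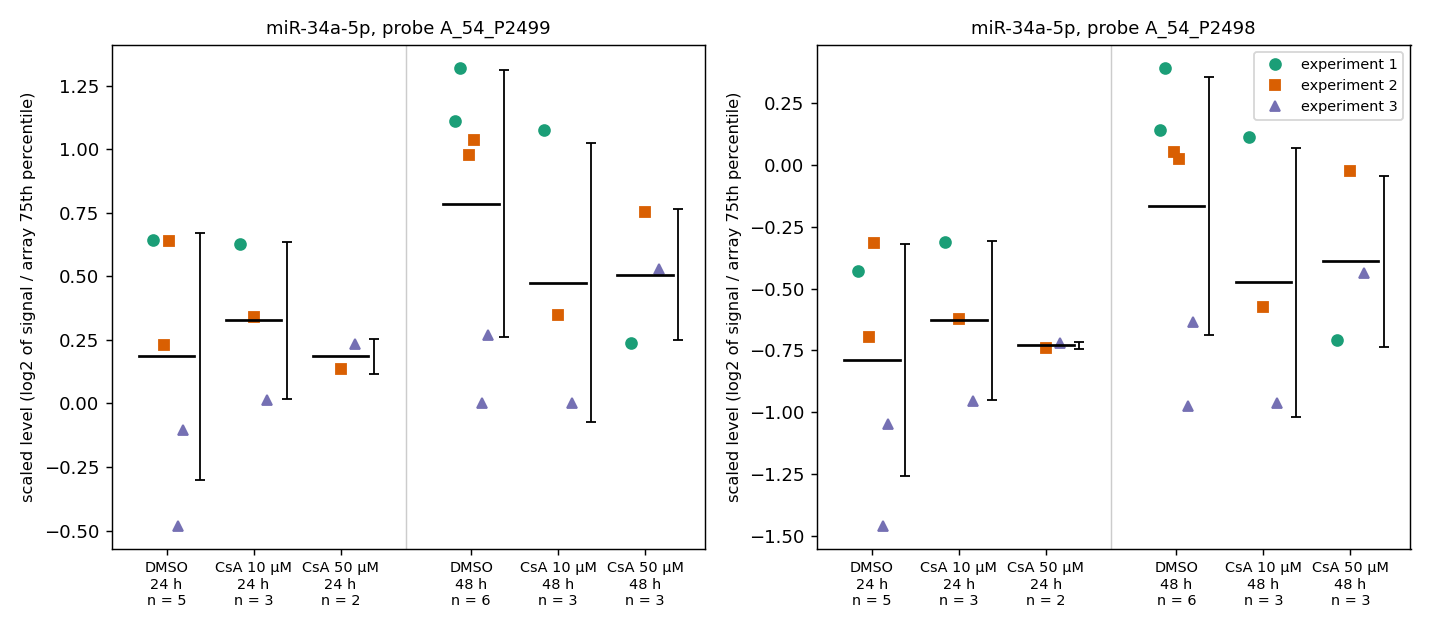
Scaled level of miR-34a-5p on each array (log2, vertical axis) by group, for probe A_54_P2499 on the left and A_54_P2498 on the right, with groups named by the array files. Symbols give the experiment number, lines the group mean and bars the SD; the triangles of experiment 3 lie low in the 2 DMSO groups on both panels.

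The series names its samples in 2 ways that conflict, and this bears on dose. Each of the 22 columns of the deposited value table could be rebuilt from 1 array file, but in 16 cases the column and the file bear different sample names. In 8 cases the names differ in CsA dose and in the other 8 they name different DMSO samples, while experiment and time match throughout. Results with both doses pooled, and results in DMSO, do not depend on the naming. Dose results follow the names of the array files, and then those of the value table. The hepatocyte markers miR-122-5p, miR-192-5p and miR-194-5p were above background on all 22 arrays. Of the other markers, 0 of 4 for leukocytes, 0 of 2 for erythroid cells and 0 of 5 for other epithelia were above background on any array. For endothelial cells 1 of 2 was, miR-126-3p on 20 arrays, and for mesenchymal cells 1 of 5, miR-145a-5p on 12 arrays. One array, CsA 10 µM at 24 h in experiment 3, had a negative control mean of 215 intensity units, against a median of 2.95 over all arrays. Its level of miR-34a-5p, 0.012, was the lowest of the 5 CsA arrays at 24 h.

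After 24 h, CsA left no difference in miR-34a-5p that passed the test. With both doses pooled, CsA averaged 0.27 ± 0.23 and DMSO 0.19 ± 0.49 (SD, n = 5 each). The CsA arrays stood at 0.012, 0.14, 0.23, 0.34 and 0.63, and the DMSO arrays at -0.48, -0.10, 0.23, 0.64 and 0.64. All 5 CsA arrays thus lay inside the range of the DMSO arrays. The difference was 0.084 ± 0.26 (log2, SE), with a 95% confidence interval from -0.46 to 0.63 and an adjusted p of 1.00 (limma over 289 miRNAs, Benjamini-Hochberg). Over all 289 miRNAs tested the share called at an adjusted p under 0.05 was 0.0%, with 19 at an unadjusted p under 0.05. Without the CsA array with the high negative controls the difference was 0.15.

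After 48 h miR-34a-5p was on average lower with CsA, but within the spread of the arrays. The 6 CsA arrays had a lowest level of 0.00, a median of 0.44 and a highest of 1.08, against 0.00, 1.01 and 1.32 for the 6 DMSO arrays. Of the DMSO arrays 4 lay at or above 0.98 and 2 at or under 0.27, so the groups overlapped. The means were 0.49 ± 0.38 with CsA and 0.79 ± 0.52 with DMSO (SD, n = 6 each). The difference was -0.30 ± 0.24 (1.23-fold lower, 95% interval -0.79 to 0.20, adjusted p = 0.452 by limma), while 1.04% of all miRNAs were called. In a fit within experiments, with their number as a block, the same difference of -0.30 had an SE of 0.16, an interval from -0.64 to 0.048 and an adjusted p of 0.209. That fit called 8.30% of all miRNAs. The second probe gave -0.27 ± 0.24 without the block (adjusted p = 0.504). The CsA effect at 48 h minus that at 24 h was -0.38 ± 0.35, with an interval from -1.12 to 0.36 and an adjusted p of 0.796.

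The 48 h difference was negative in experiments 1 and 2 and positive in experiment 3, and whether it differed between them was not tested. Experiment 1 had a mean of 0.66 with CsA and 1.22 with DMSO, a difference of -0.56. In experiment 2 the means were 0.55 with CsA and 1.01 with DMSO, a difference of -0.46. Experiment 3 had 0.26 with CsA and 0.13 with DMSO, a difference of 0.13. Each mean is of 2 arrays, and the CsA pairs were made of 1 array at each dose. After 24 h the differences were -0.017, -0.20 and 0.42 in experiments 1, 2 and 3. An exact two-sided permutation of the arrays within experiments gave p = 0.194 for the 48 h difference and p = 0.611 for that at 24 h (adjusted over 16 comparisons, 0.778 and 0.978).

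**Figure D2:**
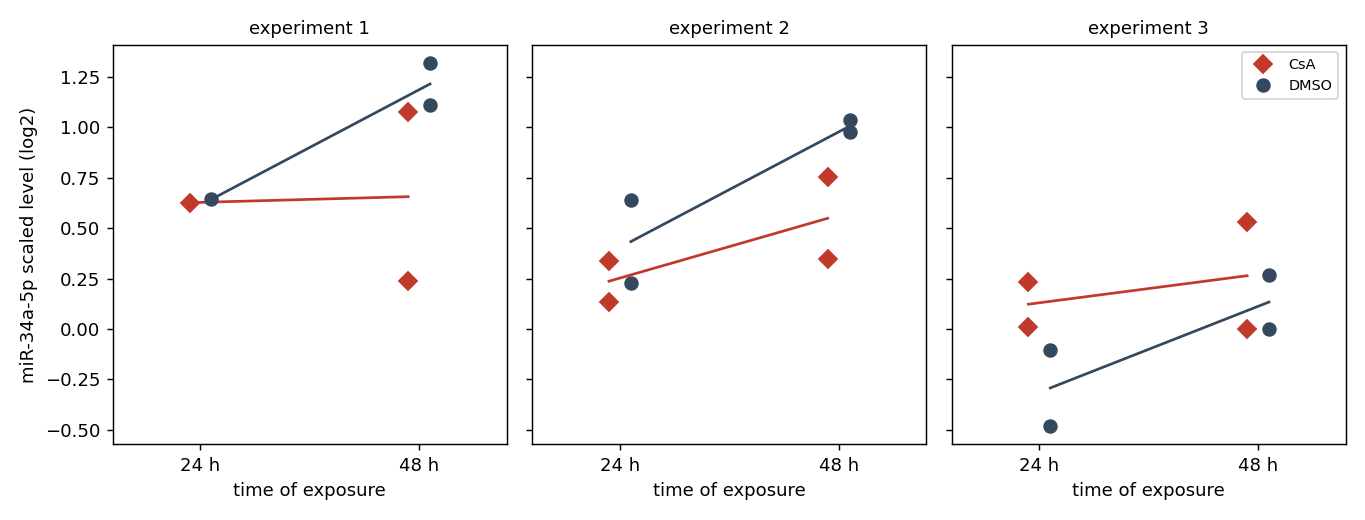
Scaled level of miR-34a-5p (log2, vertical axis) at 24 h and 48 h in each experiment, with CsA of both doses as diamonds and DMSO as circles; lines join the means. The DMSO line is higher at 48 h than at 24 h in each of the 3 experiments, and CsA lies under DMSO at 48 h in experiments 1 and 2 but not in experiment 3.

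The level of miR-34a-5p differed between the 3 experiments. The 8 arrays of experiment 3 averaged 0.057 ± 0.30, against 0.56 ± 0.34 for the 8 arrays of experiment 2 and 0.84 ± 0.40 for the 6 arrays of experiment 1 (SD). With treatment and time kept in the model, experiment 3 lay 0.72 below experiment 1 and experiment 2 lay 0.22 below it (adjusted p = 0.00562, limma F test). That test called 26.6% of the 289 miRNAs, so miR-34a-5p was 1 of many that differed between experiments. The same test with the slide of each array also in the model gave an adjusted p of 0.00571, with 20.4% called. Between the 3 slides the adjusted p of miR-34a-5p was 0.676, with 1.38% called. In DMSO alone, experiment 3 had levels from -0.48 to 0.27, against 0.64 to 1.32 in experiment 1, with no overlap. With CsA the ranges did overlap, at 0.00 to 0.53 in experiment 3 and 0.24 to 1.08 in experiment 1.

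Slide was not spread evenly over the 48 h groups. Both DMSO arrays of experiment 1 at 48 h were on slide 2, which held 0 CsA arrays of that time. On slide 1, CsA at 48 h averaged 0.33 over 4 arrays and the 1 DMSO array stood at 0.27. Slide 3 had means of 0.80 over 2 CsA arrays and 0.67 over 3 DMSO arrays. The within-slide differences were thus 0.066 and 0.13, opposite in sign to the pooled -0.30. The fit with slide as a block gave -0.11 ± 0.25 (adjusted p = 0.904), and with slide and experiment both as blocks -0.12 ± 0.16 (adjusted p = 0.720). The part of slide in the 48 h difference was not tested beyond these fits.

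Culture time in DMSO went with higher miR-34a-5p in every experiment, though not past the test over all miRNAs. The level averaged 0.79 ± 0.52 at 48 h (n = 6) and 0.19 ± 0.49 at 24 h (n = 5, SD). At 48 h the DMSO means were 1.22, 1.01 and 0.13 in experiments 1, 2 and 3, against 0.64, 0.43 and -0.29 at 24 h. The differences within experiments were 0.57, 0.57 and 0.43. Within each experiment all 48 h arrays lay above all 24 h arrays, while over the experiments the groups overlapped. The overall difference was 0.60 ± 0.25 (1.52-fold higher, interval 0.077 to 1.12), and its adjusted p was 0.313 by limma, with 0.0% of miRNAs called and 38 at an unadjusted p under 0.05. With experiment as a block it was 0.54 ± 0.17 (interval 0.18 to 0.90, adjusted p = 0.0960), where 3.46% were called. The exact two-sided permutation of arrays within experiments gave p = 0.00926, the smallest that its 108 arrangements allow, and 0.148 after adjustment over 16 comparisons. Within slides the differences were 0.21 on slide 1, 1.14 on slide 2 and 0.027 on slide 3.

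Beside this, an endothelial marker was lower at 48 h than at 24 h in DMSO when experiment was a block. The 1 endothelial marker above background, miR-126-3p, differed by -0.64 ± 0.26 between 48 h and 24 h (adjusted p = 0.307), and by -0.73 ± 0.15 with experiment as a block (adjusted p = 0.0210). Over all arrays miR-126-3p was dim, at -4.20 to -2.10 (log2, median -3.18) against a floor of -4.41. The summed linear level of the 2 endothelial markers ran from 0.101 to 0.203 at 48 h and from 0.145 to 0.227 at 24 h. In these sums miR-126-5p was at the floor of 0.0471 throughout. The 3 hepatocyte markers were also lower on average at 48 h in DMSO, at -0.27 ± 0.092 for miR-122-5p (adjusted p = 0.186), -0.20 ± 0.14 for miR-192-5p and -0.19 ± 0.14 for miR-194-5p. Their summed linear level ran from 43.8 to 55.2 at 48 h (median 46.7) and from 48.3 to 65.9 at 24 h (median 58.6). The mesenchymal marker miR-145a-5p, above background on 12 arrays, went the other way, by 0.067 ± 0.27 and by 0.13 ± 0.23 with the block. Neither value passed the test (adjusted p = 0.989 and 0.908, limma). The part of these markers in the time difference of miR-34a-5p was not tested.

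With CsA the 48 h arrays were also higher on average, by less than the spread of the arrays. CsA of both doses averaged 0.49 ± 0.38 at 48 h (n = 6) and 0.27 ± 0.23 at 24 h (n = 5, SD). The difference was 0.22 ± 0.25 (interval -0.30 to 0.74, adjusted p = 0.621), with 0.346% of miRNAs called. Within experiments 1, 2 and 3 it was 0.030, 0.31 and 0.14. Whether time acted differently with CsA than with DMSO is the same test as the change of the CsA effect with time, whose adjusted p was 0.796.

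By dose, and with arrays named by their files, no step of miR-34a-5p passed the test. At 24 h the means were 0.19 ± 0.49 in DMSO (n = 5), 0.33 ± 0.31 at 10 µM (n = 3) and 0.18 ± 0.069 at 50 µM (n = 2, SD). At 48 h they were 0.79 ± 0.52 in DMSO (n = 6), 0.47 ± 0.55 at 10 µM (n = 3) and 0.51 ± 0.26 at 50 µM (n = 3, SD). Neighbouring doses thus differed by less than the larger of their SDs at both times. In experiments 1, 2 and 3 the 48 h arrays stood at 1.08, 0.35 and 0.00 at 10 µM and at 0.24, 0.75 and 0.53 at 50 µM. The 50 µM array was thus the lower one in experiment 1 and the higher one in experiments 2 and 3. Against DMSO, 10 µM differed by 0.14 ± 0.32 at 24 h and by -0.31 ± 0.31 at 48 h (adjusted p = 0.984 and 0.613, limma). The difference at 50 µM was -0.00058 ± 0.36 at 24 h and -0.28 ± 0.31 at 48 h (adjusted p = 1.00 and 0.803). This 48 h value was -0.059 in the authors' value table and -0.61 when scaled over all probes (adjusted p = 0.955 and 0.572). Of all miRNAs, 6.23% were called at 10 µM after 48 h and 0.346% at 50 µM after 48 h, and 0.0% at either dose after 24 h. At 24 h, 21 miRNAs at 10 µM and 7 at 50 µM had an unadjusted p under 0.05. The dose difference at 48 h, 50 µM minus 10 µM, was 0.033 ± 0.36 (interval -0.71 to 0.78, adjusted p = 1.00). At 24 h it was -0.14 ± 0.40 (interval -0.98 to 0.69, adjusted p = 1.00). The 50 µM arrays at 24 h were of experiments 2 and 3 only, while the 10 µM arrays included that of experiment 1, at 0.63. The unblocked 24 h differences at 50 µM are thus mixed with those between experiments. Within experiments 2 and 3 the dose difference was -0.20 and 0.22, with a mean of 0.0090.

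Arrays named by the value table gave another picture at 48 h. The 50 µM arrays then stood at 0.24, 0.35 and 0.00, the 10 µM arrays at 1.08, 0.75 and 0.53, in experiments 1, 2 and 3. All 3 arrays at 50 µM lay below all 3 at 10 µM, and the 50 µM array was the lower one within each experiment. The means were 0.79 ± 0.52 in DMSO (n = 6), 0.79 ± 0.27 at 10 µM and 0.19 ± 0.18 at 50 µM (SD, n = 3 each). Against DMSO, 10 µM differed by 0.00026 ± 0.28 (interval -0.59 to 0.59, adjusted p = 1.00). The difference at 50 µM was -0.59 ± 0.28 (1.51-fold lower, adjusted p = 0.101, limma), while 37.7% of all miRNAs were called. Within experiments 1, 2 and 3 this 50 µM difference was -0.98, -0.66 and -0.13. The 50 µM array of experiment 3 and the lower DMSO array of that experiment both stand at 0.00, because on these 2 arrays the probe is itself the 75th percentile.

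With experiment as a block and table names, miR-34a-5p fell at 50 µM. The difference from DMSO at 48 h was again -0.59, with an SE of 0.17, an interval from -0.94 to -0.24 and an adjusted p of 0.00765 (limma). In that fit 53.6% of all miRNAs were called, 97 higher and 58 lower, so being called there is not particular to miR-34a-5p. The split depended on scaling, with 87 higher and 41 lower for total gene signal and 47 higher and 95 lower when scaled over all probes, and against DMSO miR-34a-5p was called lower in these and in the 3 other scalings run. The 50 µM minus 10 µM difference was -0.59 ± 0.19 (interval -0.998 to -0.18, adjusted p = 0.0237), where 40.5% were called, and for total gene signal it was -0.48 and missed the threshold (adjusted p = 0.119). Without the block its adjusted p was 0.173, with 28.4% called. Leaving out the 50 µM array of experiment 1 ended both blocked calls, at -0.43 from DMSO (adjusted p = 0.0830) and -0.43 from 10 µM (adjusted p = 0.141). The call against 10 µM was also lost without the 10 µM array of experiment 1 (-0.61, adjusted p = 0.0558) and without that of experiment 3 (-0.50, adjusted p = 0.0919). These 50 µM arrays differ in technical measures. That of experiment 1 had 206 miRNAs detected and 9.24% outlier spots, and that of experiment 3 had a 75th percentile of 605 intensity units and 400 miRNAs detected, the highest of all 22 arrays in both. The medians over all arrays were 273 miRNAs detected, 4.01% outlier spots and 288 intensity units. Without the 50 µM array of experiment 3 the difference from DMSO was -0.71 (adjusted p = 0.00801). The part of these measures in the difference was not tested. With slide added to the blocked fit the differences were -0.42 ± 0.20 from DMSO (adjusted p = 0.0945) and -0.49 ± 0.21 from 10 µM (adjusted p = 0.0766).

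Under table names all 3 arrays at 50 µM and 48 h were on slide 1, which held 1 DMSO array of that time, at 0.27. The difference within slide 1 was -0.073 from DMSO and -0.56 from the 1 array at 10 µM there. An exact two-sided permutation within experiments gave p = 0.0741 for 50 µM against DMSO at 48 h (adjusted over 16 comparisons, 0.395) and cannot go below 0.037. Between 50 µM and 10 µM at 48 h the unstratified exact test gave p = 0.1, the smallest that 3 against 3 arrays allow. At 24 h the table names gave 0.15 ± 0.29 at 10 µM and -0.0096 ± 0.33 at 50 µM against DMSO (adjusted p = 1.00 for each), where 0.0% and 3.81% of all miRNAs were called. With experiment as a block the 50 µM difference at 24 h was 0.085 ± 0.20 (adjusted p = 0.871), where 5.88% were called.

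**Figure D3:**
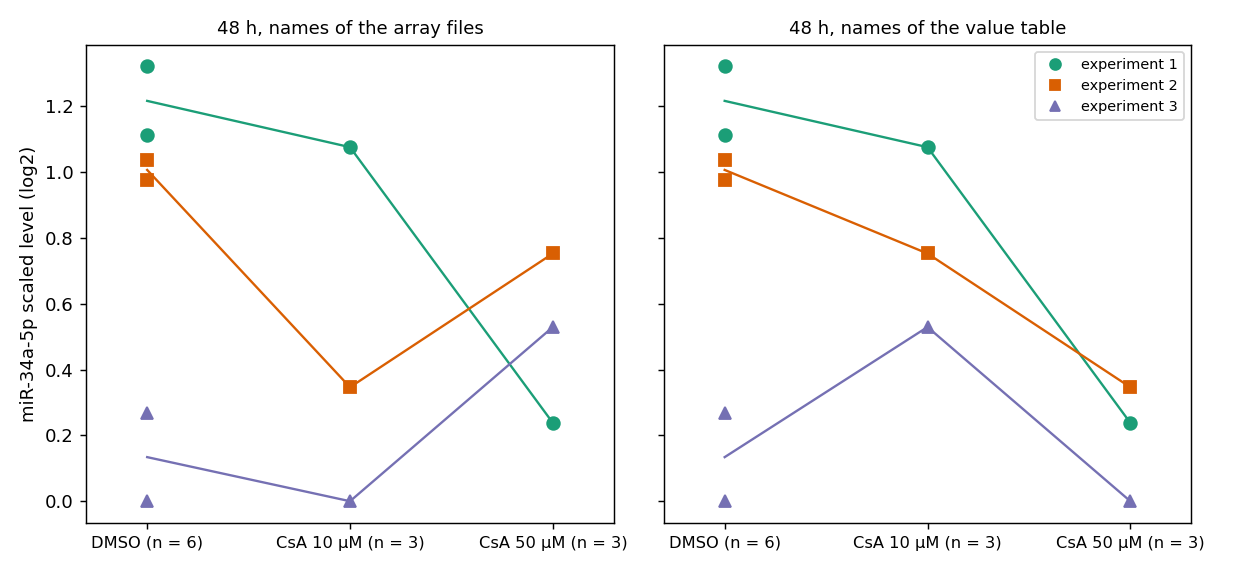
Scaled level of miR-34a-5p at 48 h (log2, vertical axis) by dose, with arrays named by their files on the left and by the value table on the right; lines join the means of an experiment. The same 12 points are in both panels, and only on the right is the 50 µM point under the 10 µM point in all 3 experiments.

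The 2 namings also differed in how arrays of one experiment deviated together over the 289 miRNAs. Between the 10 µM and 50 µM arrays at 48 h, the correlation of their deviations from the group means was -0.75 to -0.26 in the 3 experiments by file names and 0.28 to 0.43 by table names. Between the 50 µM and DMSO arrays at 48 h it was -0.33 to 0.45 by file names and 0.36 to 0.52 by table names. At 24 h, between the 10 µM and DMSO arrays, it was 0.16 to 0.35 by file names and -0.21 to 0.58 by table names. The other 24 h ranges are of 2 experiments, with file names first. They were -0.082 to -0.047 and 0.20 to 0.46 between 50 µM and DMSO. Between 50 µM and 10 µM they were -0.079 to 0.48 and 0.17 to 0.22. For 10 µM and DMSO at 48 h the ranges, of 3 experiments, were -0.12 to 0.84 and 0.11 to 0.78. These are correlations across miRNAs, which are not independent replicates. None of the sources used here says which naming is right.

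**Figure D4:**
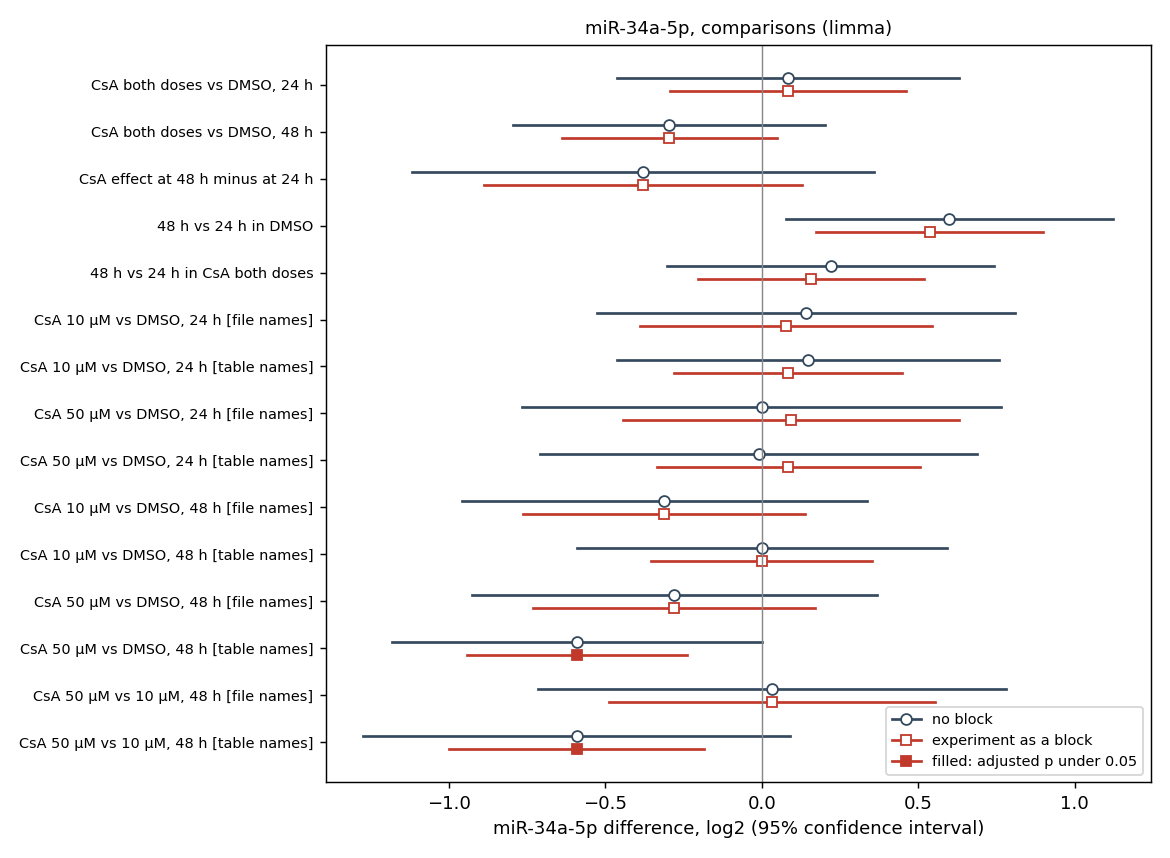
Difference of miR-34a-5p in each comparison (log2, horizontal axis, with 95% confidence intervals), without a block as circles and with experiment as a block as squares; filled symbols have an adjusted p under 0.05 by limma over 289 miRNAs. The 2 filled symbols are 50 µM against DMSO and against 10 µM at 48 h, both under table names and with the block, at -0.59.

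Other miRNAs reported as p53-responsive, most of them from human cells, were compared with miR-34a-5p. The list has 19 members, of which 18 are on the array, 8 could be tested and 7 were above background on all arrays. Those 7 include miR-192-5p and miR-194-5p, which arise from shared primary transcripts and are abundant in hepatocytes. The others are miR-107-3p, miR-15a-5p, miR-16-5p, members of a family that restrains the cell cycle, miR-22-3p, and miR-34a-5p itself. Members not above background on any array were miR-34a-3p, both arms of miR-34b and miR-34c, miR-215-5p, miR-143-3p, miR-200c-3p, miR-141-3p and miR-149-5p.

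At 48 h, with both doses pooled, 0 of these 8 were called in either direction, against 1.04% of all miRNAs, and the count at 24 h was 0 as well. The median difference of the 8 was -0.16 at 48 h, against 0.099 over all 289 miRNAs, and 5 of 8 were negative, against 105 of 289. Under 5 other scalings the list kept 5 to 8 negative members and 0 called, while the count over all miRNAs ran from 115 to 198. The values at 48 h were -0.28 ± 0.13 for miR-192-5p (adjusted p = 0.173), -0.18 ± 0.13 for miR-107-3p and -0.16 ± 0.15 for miR-22-3p. miR-194-5p differed by -0.15 and miR-145a-5p, which was above background on 12 arrays, by 0.28. Closest to 0 were 0.023 ± 0.17 for miR-15a-5p and 0.022 ± 0.13 for miR-16-5p. At 24 h the list's median was 0.059, against 0.046 over all miRNAs.

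At 50 µM and 48 h under table names, with experiment as a block, 53.6% of all miRNAs were called. Of the 289, 58 were called lower and 97 higher. On the list 4 of the 8 were called lower and 0 higher. Beside miR-34a-5p these were miR-192-5p at -0.47 ± 0.12 (adjusted p = 0.00397), miR-22-3p at -0.41 ± 0.15 (adjusted p = 0.0274) and miR-107-3p at -0.37 ± 0.13 (adjusted p = 0.0325). Without the block 1 of 8 was called, miR-192-5p (adjusted p = 0.0150), against 37.7% of all miRNAs. By file names, also without the block, 0 of 8 were called, against 0.346% of all miRNAs. Under table names the median of the 8 was -0.33, against 0.15 over all 289. In 5 other scalings of the blocked fit under table names, the count called lower was 1 for total gene signal, 7 when scaled over all probes and 5 in the others. Of all 289 miRNAs, 41 were called lower for total gene signal, 95 when scaled over all probes and 77 to 93 in the others.

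A second list held 8 miRNAs reported, in human cells, to act on p53 or on its inhibitors, and 7 of them could be tested. At 48 h, with both doses pooled, 0 of 7 were called, against 1.04% of all miRNAs, and the median was -0.062, against 0.099 over all 289. With experiment as a block 1 of 7 was called, miR-125a-5p, a relative of the p53 repressor miR-125b, at -0.73 ± 0.22 (adjusted p = 0.0477), where 8.30% of all miRNAs were called. In DMSO, miR-125a-5p was higher at 48 h than at 24 h by 0.86 ± 0.23 (adjusted p = 0.0423) with that block, where 3.46% of all miRNAs were called and miR-25-3p differed by 0.48 ± 0.15 (adjusted p = 0.0793). At 50 µM and 48 h under table names miR-125a-5p was the 1 member of 7 called, with a difference of -1.23 ± 0.18 (adjusted p = 5.13e-05 with the block), against 53.6% of all miRNAs called with the block and 37.7% without it. In other scalings of the blocked fit 1 to 6 of the 7 were called lower, miR-125a-5p among them each time. Of all 289 miRNAs, 41 were called lower in the scaling with 1 of 7 and 95 in that with 6 of 7. The p53 repressor miR-125b-5p itself stood at -0.17 ± 0.14 in that fit (adjusted p = 0.328). The calls of miR-125a-5p are those of a dim entry, which was above background on 21 arrays. Its level ran from -4.29 to -1.91 (log2, median -3.42) against a floor of -4.41. The part of this low level in its calls was not tested.

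**Figure D5:**
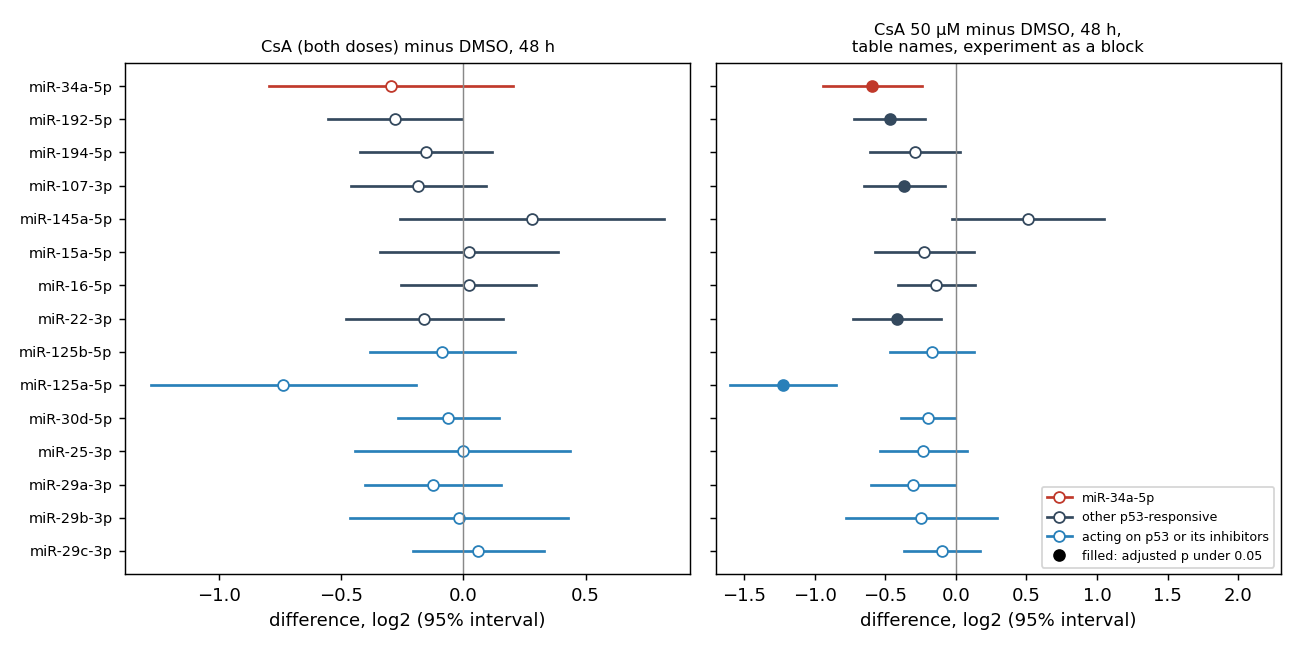
Difference at 48 h (log2, horizontal axis, with 95% confidence intervals) of the tested members of both lists, for CsA of both doses against DMSO on the left and for 50 µM against DMSO under table names with experiment as a block on the right. Filled symbols have an adjusted p under 0.05 by limma; there are 0 on the left and 5 on the right.

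The miRNAs most like miR-34a-5p over the 22 arrays were taken from the 155 other miRNAs above background on all of them, by Pearson's r of the scaled levels. The 5 highest were let-7i-5p (r = 0.968), miR-93-5p (0.954), miR-98-5p (0.929), miR-25-3p (0.928) and miR-27a-3p (0.926). The 2 lowest were miR-6407 (-0.770) and miR-3057-5p (-0.729), and the median of the 155 was -0.14. With the means of the 4 groups of treatment and time taken out, let-7i-5p had r = 0.971 and miR-25-3p had r = 0.964, so the likeness lay within groups too. These values describe 22 arrays that share their scaling and their 3 experiments. The 5 are shown with their seeds in capitals, because none has the seed of miR-34a-5p.
let-7i-5p: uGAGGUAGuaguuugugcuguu
miR-93-5p: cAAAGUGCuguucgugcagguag
miR-98-5p: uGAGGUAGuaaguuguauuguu
miR-25-3p: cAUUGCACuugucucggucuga
miR-27a-3p: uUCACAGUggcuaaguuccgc

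The seed of let-7i-5p is also that of miR-98-5p, both being members of the let-7 family, which restrains growth genes. The mature miR-93-5p and miR-25-3p lie near each other on the minus strand of chromosome 5, at chr5:138165574-138165596 and chr5:138165332-138165353, as parts of the miR-106b cluster. In DMSO the 48 h minus 24 h differences of the 5 ran from 0.45 for let-7i-5p to 1.38 for miR-27a-3p, beside 0.60 for miR-34a-5p. With experiment as a block miR-27a-3p was called, at 1.25 (adjusted p = 0.0288, with 3.46% of all miRNAs called), and the other 4 had adjusted p from 0.0793 to 0.181. At 48 h, CsA minus DMSO was -0.15 for let-7i-5p, -0.34 for miR-93-5p, -0.15 for miR-98-5p, -0.0019 for miR-25-3p and -0.45 for miR-27a-3p. None of the 5 was called in that comparison, with adjusted p from 0.385 to 1.00. Of the 2 with the lowest r, miR-6407 differed by 0.77 ± 0.33 (adjusted p = 0.151) and miR-3057-5p by 0.68 ± 0.35 (adjusted p = 0.204). Both were called higher with CsA at 48 h when experiment was a block (adjusted p = 0.0243 for miR-6407 and 0.0477 for miR-3057-5p, limma). That fit called 8.30% of all miRNAs, 17 higher and 7 lower. The 5 and the 2 were picked by their correlation with miR-34a-5p over these same arrays. Their differences and calls are therefore not independent of the differences of miR-34a-5p.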

How the data were processed

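The 22 array files hold spot intensities; per the file headers, the authors' background-corrected processed signal came from Feature Extraction 10.7.3.1. The deposited value table holds log2 intensities; the submitters' processing notes name R 2.15.2. A minimum of 0.5, quantile normalisation of the total gene signal and log2 rebuilt its 22 columns within 1e-06; unused sample columns numbered 0.

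The processed signal was averaged over non-control, non-outlier spots and scaled by that array's 75th percentile, taken over 281 probes above background on all arrays (188 to 605 intensity units). Values were floored at 0.0471 and logged. The brighter of 2 probes was used. On 2 arrays this probe itself lies at the percentile, so its level there is 0.00. A miRNA was tested if above background on at least 3 arrays (289 of 1247). Differences were fitted with limma 3.58.1 in R 4.3.3 over all arrays, pooled doses in 4 groups and doses in 6, with Benjamini-Hochberg adjustment. The code was tested on simulated data. Where a permuted value is given, the test was exact.

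Experiment numbers were checked as pairs: deviations of same-numbered arrays correlated at 0.39 to 0.77 between CsA and DMSO at 48 h, 0.20 to 0.44 between times in DMSO, 0.18 to 0.64 between times with CsA, and 0.055 to 0.39 between CsA and DMSO at 24 h. The check passed (all over 0.1) for the first 3 of these, for 10 µM at 24 h by file names and for the dose comparisons at 48 h by table names.

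miR-34a-5p, the lists and the rule for the miRNAs named (the list members above background, and the 5 highest and 2 lowest correlations) were chosen with earlier results of these data known. The number of arrays limits the precision. Probe sequences were not used here.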

Additional observations from a re-analysis of the deposited data

How the results depend on the processing

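Of 409 recomputed values, 361 kept direction and side of the threshold. Under either naming, pooled doses kept a negative difference at 48 h in all 25 alternatives (-0.72 to -0.11; adjusted p 0.136 to 0.942) and in all 16 with experiment as a block (-0.72 to -0.12). The interaction was negative in all 33 alternatives without the block and all 26 with it. Scaling over all probes shifted the median of all miRNAs at 48 h by -0.26 and the authors' value table by -0.17; relative to that median miR-34a-5p stood at -0.56 and -0.068, against -0.39 as reported.

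Culture time in DMSO stayed positive throughout. With no filter on dim probes it was 0.60 with an adjusted p of 0.0427, but that fit adds 958 miRNAs above background on fewer than 3 arrays, held at the floor elsewhere, and calls 931 of 1247. Leaving out single arrays gave 0.43 to 0.76, and with the replicate block 0.45 to 0.63; the blocked value passed only without DMSO 24 h replicate 4 (0.62, adjusted p = 0.04995). In CsA the time difference turned to -0.12 with scaling over all probes (-0.21 with the block).

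Near-zero values changed sign. CsA against DMSO at 24 h was -0.026 in the authors' value table, with or without the block; leaving out single arrays gave -0.082 to 0.20, and -0.0044 to 0.17 with the block (-0.00040 without CsA 50 µM 24 h replicate 3). For 10 µM at 24 h the values were -0.010 with slide as a block and -0.067 against DMSO arrays of the same dose series, and -0.026 to 0.30 without single arrays. For 50 µM at 24 h they were 0.063 scaled over all probes, 0.015 with normexp, 0.030 over both probes, 0.060 for the second probe, 0.052 for total gene signal, 0.033 with slide as a block, 0.094 with the replicate block, 0.31 against DMSO arrays of the same series, 0.11 within experiments, and -0.17 to 0.11 without single arrays. The 24 h dose difference was 0.043 with slide as a block, 0.016 with the replicate block, 0.0090 within experiments, and -0.30 to 0.0090 without single arrays.

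At 48 h the table names turned 10 µM against DMSO to 0.00026 and the dose difference to -0.59; by file names the dose difference ran from -0.20 to 0.33 without single arrays. Under table names, 50 µM against DMSO passed with the replicate block (-0.59), with normexp (-0.62, adjusted p = 0.0336) and scaled over all probes (-1.17, adjusted p = 0.0261). Leaving out single arrays gave -0.75 (without DMSO 48 h replicate 6, adjusted p = 0.0197) to -0.48. The dose difference passed with the replicate block (-0.59). Of the blocked values, 50 µM against DMSO lost the call with slide added (-0.42), and ran from -0.71 to -0.43 without single arrays; the dose difference lost it with slide added (-0.49) and for total gene signal (-0.48, adjusted p = 0.119), and ran from -0.71 to -0.43 (-0.61 and -0.50 without 10 µM replicates 1 and 3). The causes were not tested. The replicate block changed no other call of miR-34a-5p. Over all miRNAs, calls by file names for CsA at 48 h ran from 1 to 24 (3 as reported, 1 higher and 2 lower; 1 higher and 9 lower in the authors' value table), for 10 µM at 48 h from 0 to 29 (18), for 50 µM at 48 h from 0 to 12 (1) and for time in CsA from 0 to 5 (1); table names gave 3 for 10 µM and 109 for 50 µM at 48 h, and 155 for 50 µM with the block. All fits under table names except the plain one, all combinations with the block, the permutation within experiments and the test of experiments were added after the data were seen. The 2 or 3 arrays at a dose limit the precision, as the intervals show.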
